A study of Mus musculus with 18 samples.

Results

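Replicate 1 (R1) was compared with replicate 3 (R3) across the 3 lines of the polyA RNA-seq experiment, and the genes that moved with the replicate number in all 3 lines were described. The contrast set 6 of the 18 libraries of the series against each other, 3 for each replicate number, with the line as a block. The fit used all 9 polyA libraries, as replicate 2 (R2) shared the estimate of the spread, and it called 217 of 15480 genes tested. A fit on the 6 libraries alone called 1 gene higher in R1 and 0 lower. The cells were C3H/10T1/2 (CCL-226), an established mouse mesenchymal progenitor line that can be driven towards fat, cartilage or bone. WT was a control line that had received the Cas9 vector without a guide, and sg5 (clone G7) and sg6 (clone B10) were Atrx knockout (KO) clones made with 2 different guides, Atrx being a chromatin remodeler. The labels name no differentiation treatment, and each KO line was a single clone, so that the effect of a guide and of its clone cannot be told apart. The labels number the libraries R1, R2 and R3 in each line and do not say whether a number stands for a culture, a passage, a day or a library preparation. The p-values therefore measure the spread between these libraries, which may be technical.

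Mesenchymal progenitors hold several lineage programs at a low level, and in culture their transcripts respond to density, serum and the age of the medium. Density acts through YAP and TEAD and through contact-dependent Notch signaling, serum through immediate-early transcription factors and the cell cycle, and sterol supply through the SREBP factors that drive cholesterol genes. None of these states is given in the labels.

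A gene was called when its log2 fold change (R1 versus R3) lay beyond 1 and its Benjamini-Hochberg adjusted p from edgeR's quasi-likelihood test was below 0.05. Levels are CPM, counts scaled to library size with TMM factors, and each standard error (SE) is that of the log2 fold change. Total counts were 27544833, 80772108 and 41611927 in WT R1, R2 and R3, 161036799, 235346363 and 163221618 in sg5 and 71896907, 64747453 and 58918732 in sg6, so that R1 was the shallower of R1 and R3 in WT and the deeper in sg6. Ribosomal protein genes took 4.52% of counts in WT R1 and 4.75% in WT R3, 3.75% and 4.93% in sg5, and 3.97% and 5.06% in sg6, lower in R1 in each line. Their part in the results was not tested. Atrx, the targeted gene, was at 276 to 328 CPM in WT, 114 to 138 CPM in sg5 and 122 to 141 CPM in sg6, and was not called by replicate (-0.12, SE 0.09, adjusted p = 0.398). The 13 mesenchymal markers were detected in every library, although Nt5e reached no more than 0.355 CPM. None of the 13 was called, and their summed level ran from 14235 to 20435 CPM in R1 and from 14941 to 17677 CPM in R3. Of 8 macrophage markers Adgre1 was at 0 throughout, and the summed level was 17.4 to 24.1 CPM in R1 and 15.9 to 29.5 CPM in R3. The sums ran from 76.4 to 182 CPM in R1 and from 66.6 to 149.7 CPM in R3 for 5 neural markers, and stayed under 13.1 CPM in both for endothelial, epithelial and skeletal muscle markers, with no marker of these 5 types called. Ptprc, Epcam and Sox10 reached no more than 0.0699 CPM. Etv1 (-0.05, adjusted p = 0.918) and Cd34 (-0.53, adjusted p = 0.291) were not called. The longest transcript had a median of 3469 bases for the higher genes, 2596 for the lower and 3266 for all genes tested, and protein-coding genes made up 120 of the 126 higher and 79 of the 91 lower genes.

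Of 15480 genes tested, 126 were called higher in R1 (0.814%) and 91 lower (0.588%). With no limit on the fold, 733 genes were higher (4.74%) and 720 lower (4.65%). R1 minus R3 had the same sign in all 3 lines for 125 of the 126 higher genes and for all 91 lower genes, which gave 216 genes. The calls were made on these same values, so the shared sign is a description of the called genes and no test of them. The exception was the noncoding RNA gene Rian, named after its values were seen, whose difference in log2 CPM was -0.23 for WT against 2.44 for sg5 and 2.62 for sg6. The difference was over 1 on the log2 scale in every line for 33 of the higher and 25 of the lower genes. Genes just inside the threshold were Larp1b, at a log2 fold change of 1.002, and Nhsl1, at -1.0, and just outside it lay Psg29 at 0.99. R1 and R3 values did not overlap across the 3 lines for 56 of the higher (44.4%) and 46 of the lower genes (50.5%). The same held for 2600 of the 15480 genes tested (16.8%). The choice of genes by the same libraries largely sets the counts among called genes.

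The number of calls depended on single libraries, most of all on those of sg6. Without sg6 replicate 3, edgeR called 0 genes in either direction, with 1873 higher and 1615 lower at an unadjusted p below 0.05, and without sg6 replicate 1 it called 13 and 6. Leaving out WT replicate 2, WT replicate 3, sg5 replicate 2 or sg6 replicate 2 left 60 to 79 higher and 40 to 51 lower genes, and leaving out sg5 replicate 1 gave 262 and 334. All 126 and all 91 genes kept their direction without either of the sg6 libraries, and 116 and 81 of them kept a log2 fold change beyond 1 without sg6 replicate 3. The genes were chosen on these libraries, most of which stay in each refit, so a kept direction is no test of them. A fit on the 6 libraries of R1 and R3 alone, with fewer libraries to estimate the spread, called 1 gene higher and 0 lower, while DESeq2 on all 9 called 135 and 106.

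**Figure D1:**
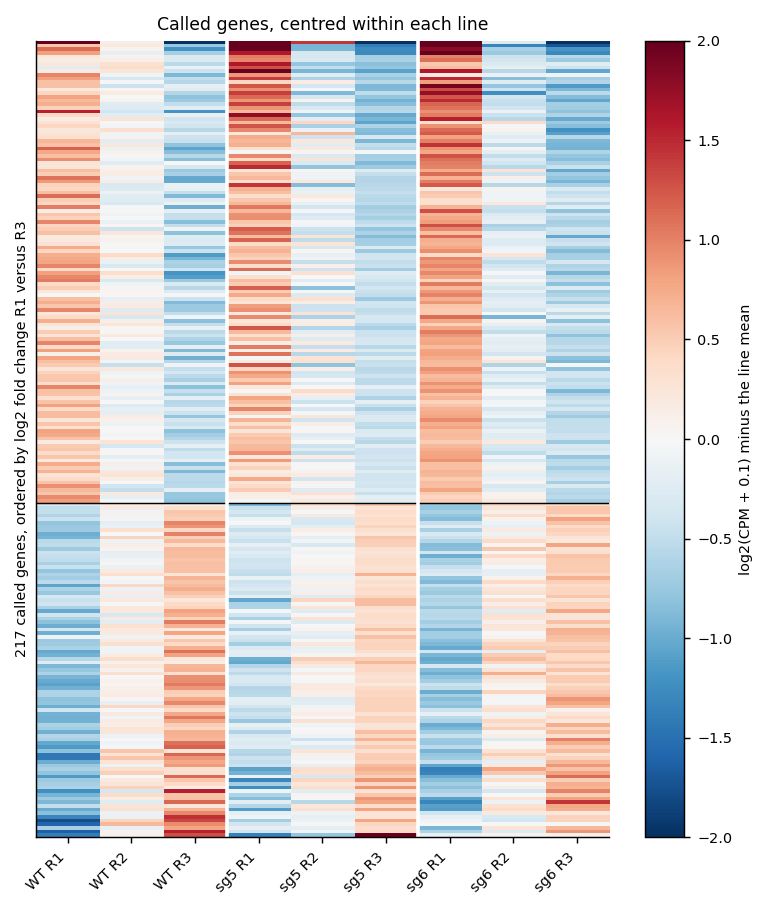
Heat map of the 217 called genes (rows, ordered by log2 fold change) in the 9 polyA libraries (columns, grouped by line). The color is log2(CPM + 0.1) minus the mean of the line, red above and blue below it, and the black line separates the 126 higher from the 91 lower genes; the R1 column of each line stands opposite to its R3 column.

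With the fold limit, cartilage matrix genes were called at the highest rate of the 25 gene lists, while at the adjusted p alone 6 of 14 passed against 18 of 25 cholesterol genes. Across all genes tested, 0.814% were called higher and 0.588% lower, and 4.74% were higher at the adjusted p alone. Of 14 chondrogenic markers tested, 5 rose in R1 and none was called lower (35.7% called), with a median log2 fold change of 0.52 over the list beside a median of -0.01 in WT, -0.00 in sg5 and -0.01 in sg6 for R1 minus R3 of all genes. Acan encodes aggrecan, the large proteoglycan of cartilage. Its level in R1, R2 and R3 was 2.69, 2.06 and 1.02 CPM in WT, 5.69, 0.510 and 0.345 CPM in sg5 and 6.85, 0.241 and 0.160 CPM in sg6. The 3 R1 values lay above all R3 values, and the log2 fold change was 3.78 (SE 0.77, adjusted p = 0.0297). Col10a1, the collagen of hypertrophic cartilage, stood at 3.0, 1.46 and 1.0 CPM in WT, at 9.19, 2.36 and 1.17 CPM in sg5 and at 20.2, 2.84 and 1.92 CPM in sg6. R1 was highest in every line, with R2 close to R3, and the log2 fold change was 2.80 (SE 0.34, adjusted p = 0.00941). Col2a1, the main fibrillar collagen of cartilage, was abundant throughout, at 778, 525 and 405 CPM in WT, 1078, 769 and 570 CPM in sg5 and 1760, 1214 and 724 CPM in sg6. It rose in each line (log2 fold change 1.04, SE 0.09, adjusted p = 0.00592), and its R1 and R3 groups did not overlap. Col9a1, which coats type II collagen fibrils, and Hapln1, the link protein that ties aggrecan to hyaluronan, rose by 1.06 (SE 0.21, adjusted p = 0.0272) and 1.83 (SE 0.39, adjusted p = 0.0334). R1 minus R3 was 0.37 and 0.54 log2 CPM in WT, 1.28 and 2.09 in sg5 and 1.44 and 2.58 in sg6, and the KO minus WT difference did not pass the test for either gene (0.98 and 1.84, adjusted p = 0.176 and 0.181). Leaving out single libraries moved the list median from 0.31 (without sg5 replicate 1) to 0.90 (without WT replicate 1). Among members that were not called, Matn3, a cartilage matrilin, stayed under the fold limit at 0.81 (adjusted p = 0.00868), and Col11a2 gave -0.58 (adjusted p = 0.0651).

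Other called genes with cartilage roles were picked out after their values were seen and form no fixed list. They give no count of such genes in either direction. Of all genes tested, 0.814% were called higher and 0.588% lower. Fgfr3, a fibroblast growth factor receptor of growth plate cartilage, was at 47.5, 30.5 and 21.2 CPM in WT R1, R2 and R3, at 55.7, 23.5 and 17.9 CPM in sg5 and at 66.4, 19.5 and 16.0 CPM in sg6. Its R1 libraries were all above its R3 libraries (log2 fold change 1.64, SE 0.19, adjusted p = 0.00836). Frzb, a secreted Wnt antagonist of cartilage, rose by 1.36 (adjusted p = 0.00592), Epyc, a small leucine-rich proteoglycan, by 1.80 (adjusted p = 0.0230), and Papss2, which makes the sulfate donor for proteoglycans, by 1.07 (adjusted p = 0.0208). Called lower were the matrix protein genes Ccn3 (-1.16, adjusted p = 0.0158) and Thbs3 (-1.01, adjusted p = 0.00868), also picked after their values were seen.

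Matrix genes outside cartilage gave 6 calls in 3 lists, to be read beside the 0.814% of all genes called higher and the 0.588% called lower. Of 37 matrix glycoproteins, proteoglycans and crosslinkers, 3 rose and none was called lower (median 0.22). Of 22 collagens 1 rose (median 0.18), and of 20 proteases and inhibitors 1 rose and 1 fell (median 0.02). Eln encodes tropoelastin, the core of elastic fibers. Its levels in R1, R2 and R3 were 81.2, 54.0 and 31.3 CPM in WT, 657, 374 and 184 CPM in sg5 and 915, 237 and 157 CPM in sg6. R1 was the highest of the 3 in every line (log2 fold change 1.96, SE 0.25, adjusted p = 0.0104), although WT R1 lay under both KO R3 values. Fmod, fibromodulin, which binds collagen fibrils, rose by 2.08 (SE 0.38, adjusted p = 0.0220), with R1 minus R3 of 0.76 in WT, 2.13 in sg5 and 3.04 in sg6. Loxl4, a crosslinking enzyme, rose by 1.02 (adjusted p = 0.00856), and Col8a1, a short-chain network collagen, by 1.17 (adjusted p = 0.0165). Fbln7, a fibulin, was at 0.803, 0.309 and 0.267 CPM in WT, 22.6, 5.56 and 4.93 CPM in sg5 and 13.1, 2.47 and 2.84 CPM in sg6. R1 stood apart from both other numbers within each line (log2 fold change 2.12, SE 0.18, adjusted p = 0.00592). Mmp23, a membrane-bound metalloprotease, fell by 1.16 on the log2 scale (SE 0.22, adjusted p = 0.0258). The other 21 collagens were not called, and R1 minus R3 over the list had a median of -0.15 in WT, 0.22 in sg5 and 0.48 in sg6. The median over the lines ranged from 0.07 without sg6 replicate 3 to 0.34 without WT replicate 1, and that of the protease list from -0.06 to 0.16 without the same libraries.

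Adipogenic genes overlapped the called genes in 2 members. Of 21 tested, Fabp4 and Adipoq rose, none was called lower, and the median was 0.12, or 0.04 without sg5 replicate 1. Of all genes tested, 0.814% were called higher. Fabp4, the fatty acid carrier of adipocytes, was at 1.22, 0.652 and 0.334 CPM in WT R1, R2 and R3, at 12.7, 4.48 and 3.33 CPM in sg5 and at 4.93, 1.56 and 1.07 CPM in sg6. R1 was highest in each line (log2 fold change 2.01, SE 0.18, adjusted p = 0.00592), although WT R1 lay within the range of the R3 values. Adipoq, the adipocyte hormone adiponectin, reached 1.48 CPM in sg5 R1 and at most 0.205 CPM in any other library (log2 fold change 2.69, SE 0.55, adjusted p = 0.0297), and it was at 0 counts in WT R3. Without sg5 replicate 1 its log2 fold change was 1.48. Pparg, the master regulator of adipogenesis, passed the adjusted p but not the fold limit (0.33, SE 0.08, adjusted p = 0.0445), and Cebpa, its partner, gave -0.04 (SE 0.11, adjusted p = 0.849). Lipe, the hormone-sensitive lipase, passed the adjusted p in the other direction (-0.76, adjusted p = 0.0165). Mature adipocyte markers were scarce, as the summed CPM of 7 such markers ran from 0.175 to 1.81 in R1 and from 0.320 to 0.432 in R3, and Retn was at 0 in all 9 libraries. Among 18 genes of fatty acid and triglyceride synthesis 0 were called by edgeR, 5 were higher at the adjusted p alone, beside 4.74% of all genes, and the median was 0.24. Fasn, the fatty acid synthase, gave 0.61 (adjusted p = 0.0135) and Fads2, a desaturase, 0.41 (adjusted p = 0.0234).

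**Figure D2:**
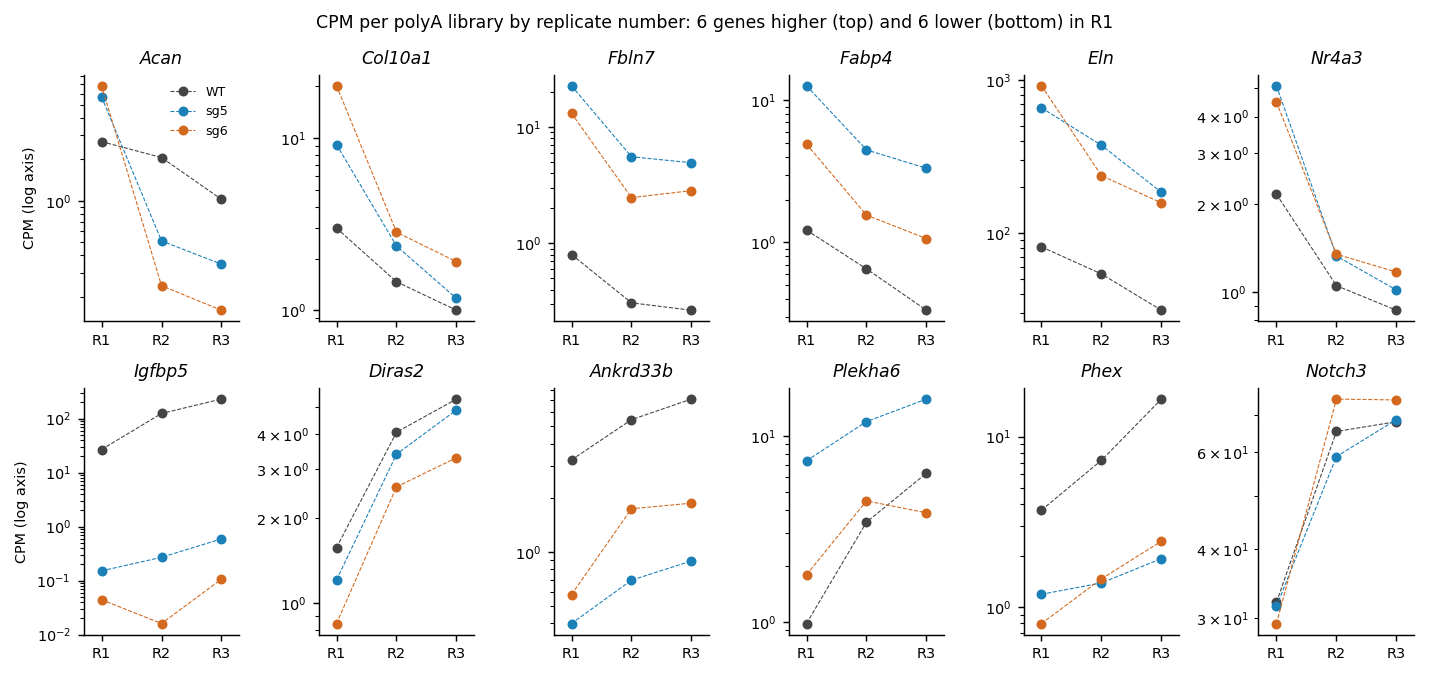
CPM (log axis) of 12 genes in the 9 polyA libraries, with the replicate number on the horizontal axis and 1 color for each line; dashed lines join libraries of the same line. The 6 genes of the top row were higher in R1 than in R3 in every line, Acan from 6.85 to 0.160 CPM in sg6, and the 6 of the bottom row lower, Notch3 from 29.3 to 74.5 CPM in sg6.

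Most cholesterol genes were higher in R1, though none passed the fold limit. Of 25 genes of cholesterol synthesis and uptake, edgeR called 0 with the limit and 18 higher at the adjusted p alone, beside 4.74% of all genes, and none was lower. R1 minus R3 was above 0 for 24 of 25 in WT, 25 in sg5 and 21 in sg6, with medians of 0.95, 0.52 and 0.34. Hsd17b7, a late sterol enzyme, was at 91.5, 60.5 and 54.1 CPM in WT R1, R2 and R3, at 122, 83.3 and 73.4 CPM in sg5 and at 94.6, 73.0 and 67.6 CPM in sg6. All R1 values lay above all R3 values (log2 fold change 0.66, SE 0.07, adjusted p = 0.00695). Insig1, the sterol-sensing brake on SREBP, gave 0.80 (SE 0.10, adjusted p = 0.00887), and Hmgcs1, an early enzyme of the mevalonate pathway, 0.67 (SE 0.10, adjusted p = 0.0154).

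In the cell cycle list, sg5 went against WT and sg6. All 38 cell cycle and DNA replication genes had a log2 fold change above 0 (median 0.60). Of them 4 rose, beside 0.814% of all genes called higher. The median was 0.36 without WT replicate 1 and 0.93 without sg5 replicate 1. In WT and sg6 all 38 were higher in R1, with medians of 1.19 and 0.81, whereas in sg5 only 9 of 38 were higher and the median was -0.24. The 4 called genes act at the entry into S phase. Ccne2, a cyclin E, was at 34.3, 24.8 and 8.47 CPM in WT R1, R2 and R3, at 32.7, 42.1 and 28.7 CPM in sg5 and at 36.0, 17.9 and 9.80 CPM in sg6. R1 minus R3 was 2.01 in WT and 1.87 in sg6 but 0.19 in sg5 (log2 fold change 1.35, SE 0.33, adjusted p = 0.0464). Cdc6, a loader of the replicative helicase, rose by 1.18 (adjusted p = 0.0358), Rrm2, a subunit of ribonucleotide reductase, by 1.09 (adjusted p = 0.0271), and Ccne1 by 1.03 (adjusted p = 0.0334), and in sg5 the 3 gave R1 minus R3 of 0.22, 0.35 and 0.37. Whether sg5 differs from the other lines was not tested. Of 16 growth arrest genes edgeR called 0, and 3 were above 0 (median -0.28, or -0.19 without WT replicate 1). At the adjusted p alone 3 were lower, beside 4.65% of all genes. These were Gas1, a growth arrest gene of quiescent fibroblasts (-0.57, adjusted p = 0.0344), the CDK inhibitor gene Cdkn1b (-0.29, adjusted p = 0.0355) and the antiproliferative Btg1 (-0.38, adjusted p = 0.0467).

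The ATF4 and interferon lists, without a called gene, also had opposite medians in sg5. Of 27 genes of the ATF4 and amino acid response, R1 was above R3 for 25 in WT and 23 in sg6 but for 4 in sg5, with medians of 0.72, 0.40 and -0.18. Slc7a1, a cationic amino acid carrier, gave 1.56 in WT, 0.20 in sg5 and 0.98 in sg6, and passed the adjusted p alone (0.91, adjusted p = 0.0386). Of 26 interferon response genes, 2 were higher in R1 in WT and 6 in sg6, while 23 were higher in sg5, with medians of -1.08, -0.31 and 0.50. None of the 26 passed the adjusted p. Across the 15480 genes, R1 minus R3 correlated between WT and sg6 at 0.45, between sg5 and sg6 at 0.36 and between WT and sg5 at 0.12; these coefficients are across genes, which are not independent, and each line contributed its own libraries.

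**Figure D3:**
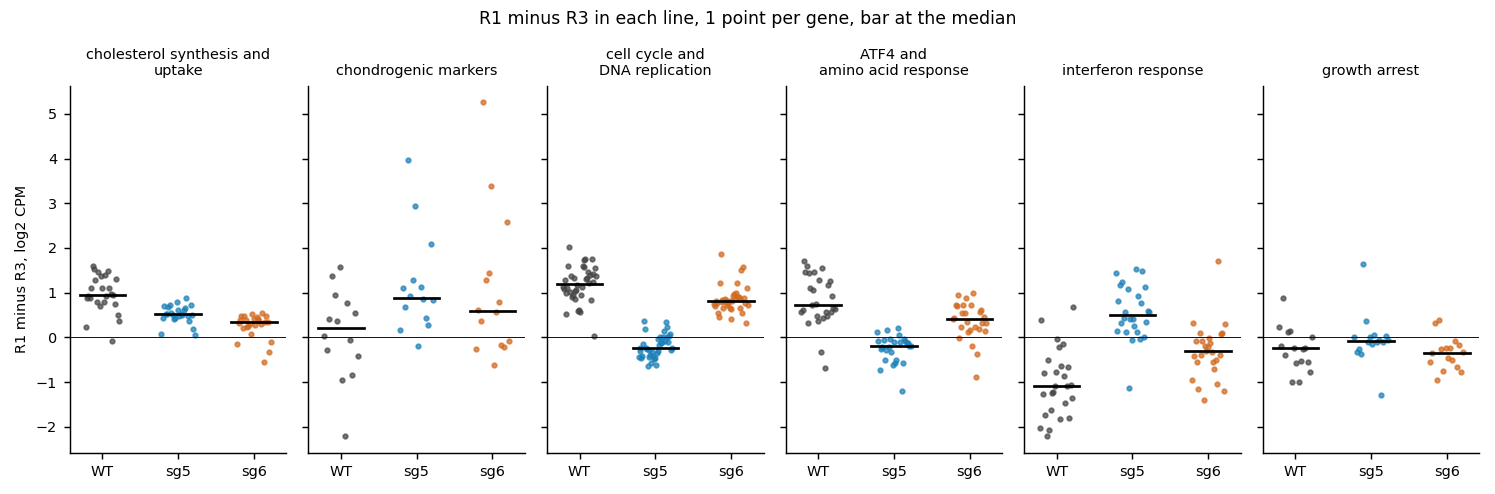
R1 minus R3 in log2 CPM (vertical axis) for each gene of 6 lists in WT, sg5 and sg6, with 1 point per gene and a bar at the median. Cholesterol medians lie above 0 in all 3 lines, while cell cycle medians are 1.19 in WT and 0.81 in sg6 but -0.24 in sg5, and interferon medians are -1.08 in WT but 0.50 in sg5.

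Growth factor genes gave few calls, to be read beside the 0.814% of all genes called higher and the 0.588% called lower. Of 36 growth factors, receptors and IGF binding proteins 1 rose and 1 fell, with a median of -0.08, or 0.05 without WT replicate 3. Igfbp5 encodes a binding protein of insulin-like growth factors. It was at 26.7, 124 and 229 CPM in WT R1, R2 and R3, at 0.152, 0.270 and 0.592 CPM in sg5 and at 0.0444, 0.0161 and 0.107 CPM in sg6. R1 was under R3 in each line (log2 fold change -2.87, SE 0.28, adjusted p = 0.00634), but in sg6 the levels rest on few counts and R2 was lowest. Without WT replicate 1 the log2 fold change was -1.79.

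Notch and BMP genes included calls in both directions, beside 0.814% of all genes called higher and 0.588% called lower. Of 18 Wnt and Notch targets 3 rose and 1 fell (median 0.40, or 0.16 without sg5 replicate 3), and of 16 TGF-beta and BMP targets 2 rose and 1 fell (median 0.43). Notch3, a Notch receptor, had almost the same level in every line, at 32.0, 65.3 and 68.1 CPM in WT R1, R2 and R3, 31.5, 58.8 and 68.7 CPM in sg5 and 29.3, 74.8 and 74.5 CPM in sg6. R1 was low in each line and R2 lay with R3 (log2 fold change -1.18, SE 0.09, adjusted p = 0.00592). The Notch target Hes1, a transcriptional repressor, moved the other way, at 19.9, 5.11 and 2.89 CPM in WT, 60.0, 36.6 and 25.7 CPM in sg5 and 64.2, 31.3 and 19.3 CPM in sg6 (log2 fold change 1.86, SE 0.26, adjusted p = 0.0135). R1 was highest in each line, with WT R1 under the R3 level of sg5. Hey1, a related target, rose by 1.76 (SE 0.41, adjusted p = 0.0405) and Sfrp1, a secreted Wnt antagonist, by 1.24 (SE 0.31, adjusted p = 0.0467). Without sg6 replicate 1 the value of Hey1 was 1.01, and without sg5 replicate 1 that of Sfrp1 was 0.80. Among BMP genes, Id4 rose by 1.46 (adjusted p = 0.0403) and the inhibitory Smad7 by 1.06 (adjusted p = 0.0199).

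Serum and density targets gave 4 calls. The counts of this paragraph stand beside 0.814% of all genes called higher and 0.588% called lower. At the adjusted p alone the shares of all genes were 4.74% higher and 4.65% lower. Of 25 immediate-early genes, Atf3 (1.0, adjusted p = 0.0163) and Klf4 (1.0, adjusted p = 0.0390), both transcription factors, rose. The median of 0.06 became -0.13 without WT replicate 1 and 0.24 without sg5 replicate 1, and the value of Klf4 was 0.65 without WT replicate 1. Of 22 YAP and TEAD targets, 2 rose, and the median of 0.06 became 0.01 without sg6 replicate 3. Ankrd1, a mechanosensitive ankyrin repeat protein, was at 12.4, 8.64 and 5.25 CPM in WT R1, R2 and R3, at 0.802, 0.728 and 0.450 CPM in sg5 and at 2.40, 1.56 and 0.994 CPM in sg6. R1 was highest in each line (log2 fold change 1.12, SE 0.15, adjusted p = 0.0120). Ccn2, connective tissue growth factor, gave the same fold (1.12, SE 0.26, adjusted p = 0.0385), though in sg5 R2 was above R1 and 23.2% of its exon bases overlap an antisense gene. Of 19 clock and glucocorticoid genes edgeR called 0, while 3 were higher and 4 lower at the adjusted p alone, among them the repressor Bhlhe40 (0.84, adjusted p = 0.00695) and, in the other direction, the clock output factor Tef (-0.63, adjusted p = 0.00868) and Per3 (-0.72, adjusted p = 0.0129). Il6 rose by 1.09 (adjusted p = 0.0175) as the sole call among 17 cytokine and NF-kB genes, and Phex, a bone mineralization gene, fell by 1.47 on the log2 scale (adjusted p = 0.0204) as the sole call among 11 osteogenic markers. Of 28 hypoxia and glycolysis genes 20 were above 0 (median 0.17, or 0.32 without sg5 replicate 3), and 6 were higher and 2 lower at the adjusted p alone. The sole call in that list was Car9, a carbonic anhydrase, which fell by 1.07 on the log2 scale (adjusted p = 0.0321). The lists of chaperones of the endoplasmic reticulum, heat shock, oxidative stress and smooth muscle held 0 called genes by edgeR, with 5, 1, 1 and 0 higher and 0, 0, 1 and 1 lower at the adjusted p alone, and their medians ran from -0.03 to 0.27.

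**Figure D4:**
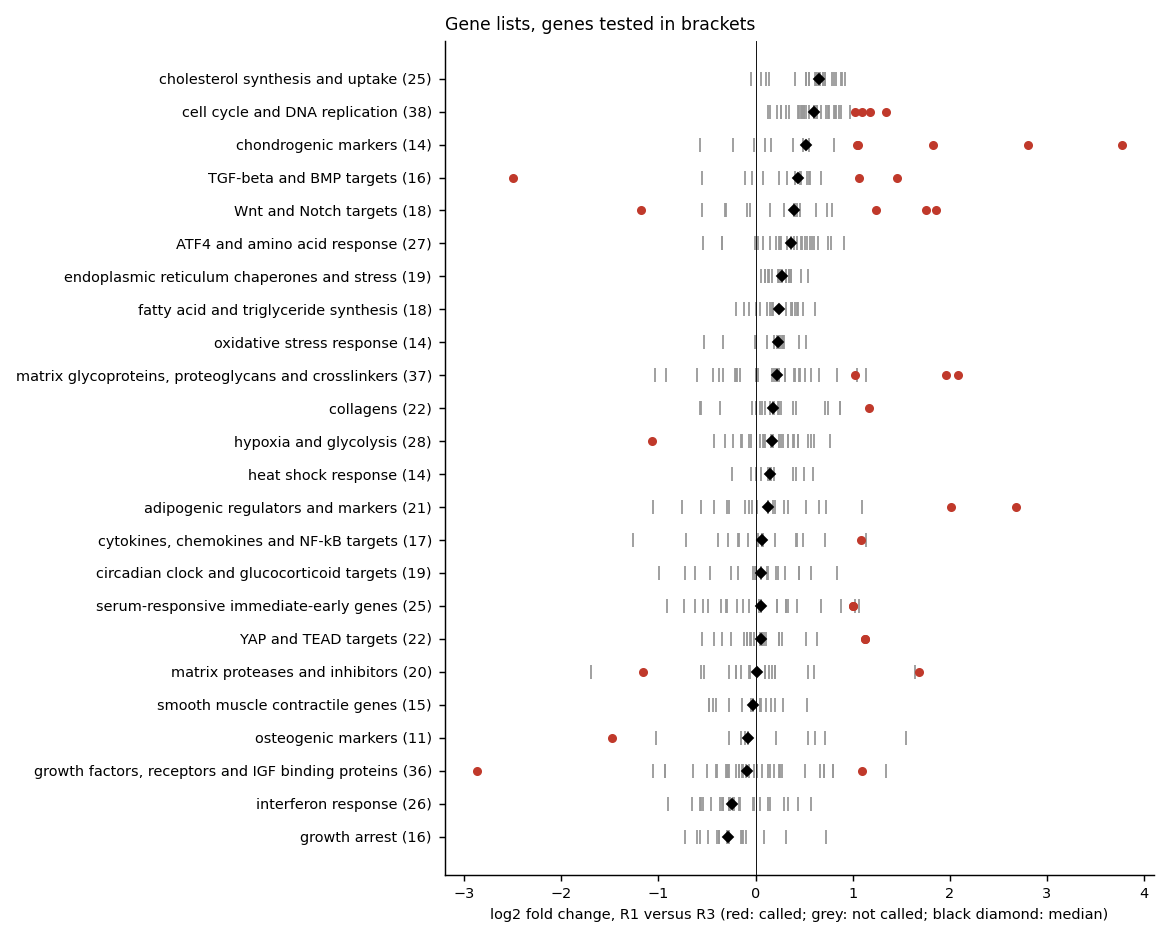
Log2 fold change (R1 versus R3, horizontal axis) of each tested gene in 24 lists (vertical axis), with called genes as red points, the others as grey ticks and the list median as a black diamond. The cholesterol list sits at the top with a median of 0.66 and no red point, and the chondrogenic list holds 5 red points up to 3.78.

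Among the 16 genes ranked by their smallest line difference, several belonged to no list. Hivep3, a zinc finger transcription factor, was at 14.1, 6.24 and 3.18 CPM in WT R1, R2 and R3, 14.8, 8.90 and 6.19 CPM in sg5 and 14.0, 9.29 and 4.94 CPM in sg6. Nr4a3, an orphan nuclear receptor, stood at 2.17, 1.05 and 0.867 CPM in WT, 5.10, 1.33 and 1.02 CPM in sg5 and 4.48, 1.35 and 1.17 CPM in sg6. For both genes the R1 values lay above all R3 values (log2 fold changes 1.61 and 1.93, adjusted p = 0.00695 and 0.00736). Diras2, a small GTPase, was lower in R1, at 1.57, 4.05 and 5.31 CPM in WT, 1.21, 3.38 and 4.86 CPM in sg5 and 0.843, 2.59 and 3.29 CPM in sg6. Each R1 library lay under every R3 library (log2 fold change -1.92, SE 0.14, adjusted p = 0.00592). Plekha6 fell by 1.5 (adjusted p = 0.0255) and Ankrd33b by 1.29 (adjusted p = 0.0147) on the log2 scale. Ldb2 and Nxf3, at 26.3 to 72.3 CPM in WT, fell by 1.44 and 1.40 on the log2 scale (adjusted p = 0.0234 and 0.0178) but were at no more than 0.0740 CPM in sg5, and at no more than 0.0710 and 1.60 CPM in sg6. Without WT replicate 1 the log2 fold change of Ldb2 was -3.56.

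The remaining 3 ranked genes share sequence with other genes. Brms1 had the largest fold, with estimated counts of 146, 937 and 522 in the R1 libraries of WT, sg5 and sg6 against 0, 4 and 2 in R3 (log2 fold change 8.52, SE 0.85, adjusted p = 0.00634). Of its 31-base words 76.3% occur also in an overlapping gene on the same strand, so that the share given to each is an estimate. In the rRNA-depleted libraries Brms1 was at 13.8 to 20.5 CPM, R3 included. Its log2 fold change there was 0.28 (SE 0.14, adjusted p = 0.460). The reason for this difference between the kinds of library was not tested. Mir6935 lies wholly within an exon of Actg1, a cytoplasmic actin, and all of its words are shared with it (log2 fold change -1.40). Serpina1e shares 54.2% of its words with its paralogs (log2 fold change -1.65).

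The next called genes belong to no list and were named after their values were seen. Bcl2l11, which encodes the pro-apoptotic protein Bim, was at 20.1, 31.1 and 68.2 CPM in WT R1, R2 and R3, 16.5, 16.6 and 26.8 CPM in sg5 and 11.4, 18.5 and 33.0 CPM in sg6. All R1 values were under all R3 values (log2 fold change -1.31, SE 0.19, adjusted p = 0.0135). Other genes with pro-apoptotic roles were called in either direction, as Bmf fell by 1.62 on the log2 scale (SE 0.31, adjusted p = 0.0256) while Pawr rose by 1.01 (adjusted p = 0.0208). Tfrc, the transferrin receptor that brings iron into cells, stood opposite at 66.6, 31.1 and 18.8 CPM in WT, 69.1, 46.0 and 33.0 CPM in sg5 and 59.5, 29.9 and 21.0 CPM in sg6 (log2 fold change 1.46, SE 0.13, adjusted p = 0.00592).

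R2 lay closer to R3 than to R1 for most called genes. On the mean of the lines this held for 94 of the 126 higher and 64 of the 91 lower genes, and R2 fell between R1 and R3 in all 3 lines for 69 and 51. Against R2, edgeR called 17 genes higher and 9 lower in R1 (0.168%), and DESeq2 called 65 and 24. Between R2 and R3 edgeR called 0 genes, with 2181 at an unadjusted p below 0.05 and a smallest adjusted p of 0.210, and DESeq2 called 3 and 6. These contrasts share libraries with the R1 and R3 comparison.

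The difference between R1 and R3 was also compared between the KO lines and WT. edgeR called 4 genes (0.0258%), with 2800 at an unadjusted p below 0.05, and DESeq2 called 205. The term places R2 midway between R1 and R3, and a fit without R2 called 0, with 1578 at an unadjusted p below 0.05. Tnc, the matrix glycoprotein tenascin C, was at 266, 313 and 479 CPM in WT R1, R2 and R3, 206, 113 and 82.3 CPM in sg5 and 136, 67.8 and 50.4 CPM in sg6. R1 was below R3 in WT and above it in both clones (KO minus WT difference 2.22, adjusted p = 0.00232). Islr gave a difference of 2.44 (adjusted p = 0.0186), Pappa2, a protease of IGF binding proteins, 2.32 (adjusted p = 0.0186), and St3gal1, a sialyltransferase, 1.59 (adjusted p = 0.0470).

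Several genes that moved with the replicate number also differed between KO and WT, in contrasts that share all 9 libraries. The genotype fits left out the replicate number. With it as a block, genes called both by replicate and in both clones went from 50 to 82. Genes higher in both clones made up 2.18% of all genes tested, and 20 of the 126 genes higher in R1 were among them (15.9%), while 5 of the 126 were lower in both clones. Genes lower in both clones made up 5.48% of all genes, and 23 of the 91 genes lower in R1 were among them (25.3%), while 2 were higher. For Eln, the log2 fold change was 1.96 by replicate, 2.87 for sg5 versus WT and 2.98 for sg6 versus WT. For Fbln7 the values were 2.12, 4.73 and 3.89, and for Igfbp5 they were -2.87, -8.56 and -11.17. Ankrd1 went opposite ways, at 1.12 by replicate and at -3.72 and -2.40 by genotype.

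The rRNA-depleted libraries, 3 per line with the same numbers, were tested in the same way. The labels do not say that a number marks the same culture in both kinds of library. Of 13303 genes tested there, 44 were called higher in R1 and 4 lower (0.361%), but 0 were called in a fit without the transposable element loci, with 2210 at an unadjusted p below 0.05, and DESeq2 called 197 in all. Of the genes higher in polyA R1, 109 were tested and 78 were above 0 (71.6%), beside 65.6% of all genes. Of the genes lower in polyA R1, 69 were tested and 36 were below 0 (52.2%), beside 34.4% of all genes. Eln (1.79, SE 0.29, adjusted p = 0.0479) and Frzb (1.89, SE 0.23, adjusted p = 0.0347) were called in both kinds. Fabp4 gave 1.58 (adjusted p = 0.189), Notch3 -1.30 (adjusted p = 0.266) and Col2a1 0.29 (adjusted p = 0.648). These genes kept their polyA direction, but 31 of the 109 higher and 33 of the 69 lower genes had the opposite sign. Among the latter were Ankrd1 (-0.98), Ccn2 (-0.84), Smad7 (-0.75), Id4 (-0.53), Col8a1 (-0.47), Rrm2 (-0.33), Ccne2 (-0.23) and Car9 (0.76). Hey1 was also below 0, and none of these genes of opposite sign was called there. The cell cycle list had a median of -0.18 there, and the cholesterol list 0.42 beside 0.10 for all genes.

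**Figure D5:**
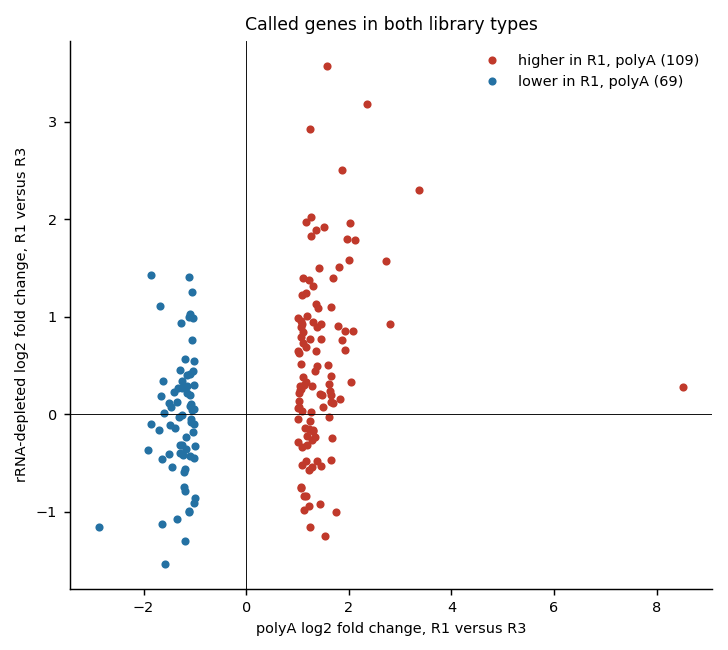
Log2 fold change (R1 versus R3) of the genes called in the polyA libraries, in polyA (horizontal axis) and in rRNA-depleted libraries (vertical axis), with 1 point per gene, red for the 109 higher and blue for the 69 lower genes tested in both. Red points lie mostly above 0 (78 of 109), and blue points lie on both sides (36 of 69 below).

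Promoter sequences of 3 called genes are shown because they hold the core motif of the TEAD factors that act in density signaling; the motifs were chosen after the calls were known. The RefSeq table (GRCm38.p6) held windows for 95 of the 126 higher and 65 of the 91 lower genes and for 12093 of all genes tested. Read on both strands, GGAATG, the core bound by TEAD factors, was found in 21 of 117 windows of the higher genes (17.9%), in 13 of 87 of the lower genes (14.9%) and in 12.7% of all 15242 windows. TGANTCA, the AP-1 motif, was found in 10.3%, 9.20% and 5.81%. The other 3 motifs searched were the CRE motif TGACGTCA, in 0.855%, 0% and 2.83% of these windows, the RBPJ motif GTGGGAA, in 5.98%, 8.05% and 6.30%, and the TATA motif TATAAA, in 6.84%, 3.45% and 4.84%. TATAAA was read on the strand of the gene alone. The motifs were counted separately, and these shares were not tested. The 250 bases before the start are printed 5′ to 3′ on the strand of the gene, with GGAATG or its reverse complement in capitals, for Acan (chr7:79052976-79053225, plus strand), Ankrd1 (chr19:36119845-36120094, minus strand) and Igfbp5 (chr1:72874866-72875115, minus strand).
Acan: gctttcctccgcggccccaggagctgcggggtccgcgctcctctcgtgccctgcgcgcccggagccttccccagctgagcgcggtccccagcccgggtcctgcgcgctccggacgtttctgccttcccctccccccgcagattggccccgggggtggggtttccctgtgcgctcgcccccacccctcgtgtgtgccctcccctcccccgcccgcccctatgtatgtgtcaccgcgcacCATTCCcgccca
Ankrd1: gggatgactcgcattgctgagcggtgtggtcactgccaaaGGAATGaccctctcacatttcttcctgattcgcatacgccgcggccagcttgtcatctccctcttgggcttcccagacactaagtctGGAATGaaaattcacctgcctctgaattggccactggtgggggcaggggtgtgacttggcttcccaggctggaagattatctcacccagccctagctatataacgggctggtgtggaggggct
Igfbp5: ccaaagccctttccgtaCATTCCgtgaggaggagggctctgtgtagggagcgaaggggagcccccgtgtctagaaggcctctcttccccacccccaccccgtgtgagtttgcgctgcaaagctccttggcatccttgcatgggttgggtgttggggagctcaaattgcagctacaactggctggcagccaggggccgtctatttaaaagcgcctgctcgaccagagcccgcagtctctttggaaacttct
The match is a description of the letters, and no binding was measured.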

How the data were processed

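The polyA RNA-seq libraries of WT, sg5 and sg6 were compared by replicate number, which comes from the sample titles, as do the groups. The authors quantified polyA reads with Salmon (version 0.8.2 per the labels) on mm10 genes and deposited the expected count of each gene without normalization. The read counts deposited for rRNA-depleted libraries cover genes and transposable element loci, made by the authors with STAR 2.27.10a and TElocal. No per-sample column was left unused. Symbols were matched for 24045 of 24100 gene IDs through RefSeq (GRCm38.p6). The strand setting of the counting is not given in the sources used here.

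Expected counts were rounded, filtered with filterByExpr by line (minimum count 10, minimum total 15), scaled by TMM and fitted with edgeR 4.0.16 in R 4.3.3 as line plus replicate number over all 9 polyA libraries, with the contrast R1 minus R3 (4 residual degrees of freedom). R2 shared the estimate of the spread. The SE is the size of the log2 fold change divided by the square root of the F statistic. Log2 CPM used a prior count of 2. The KO minus WT difference was 1 added term (3 residual degrees of freedom). Calls needed an adjusted p below 0.05 and a log2 fold change beyond 1, the threshold of the study's methods. Named genes were the 8 higher and 8 lower called genes whose mean log2 CPM reached 1, with the same sign in all lines ranked by their smallest line difference, up to 5 called genes of each list by adjusted p, the genes the study names, and for lists without a call the members of lowest p. Members, lists and alternatives were chosen with earlier results of these data known. Alternatives were DESeq2 1.42.0, median-of-ratios factors, other filters and thresholds, glmTreat, thinning, no line block, the R1 and R3 libraries alone and each library left out. Fits without a whole line, and the KO difference without R2, were added after the data were seen. Total polyA counts ran from 27544833 to 235346363, and counting error is small beside the spread between libraries. The scripts were tested on simulated data. Figures were drawn with matplotlib in Python. Mitochondrially encoded genes were not analysed here, and the values of some named genes are not reported here.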

Additional observations from a re-analysis of the deposited data

Results flagged for a closer look

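The difference between R1 and R3 differed between the KO lines and WT for 4 genes, by the edgeR term for that difference. In log2 units the KO minus WT value was 2.22 for Tnc (adjusted p = 0.00232), 2.44 for Islr (adjusted p = 0.0186), 2.32 for Pappa2 (adjusted p = 0.0186) and 1.59 for St3gal1 (adjusted p = 0.0470). In each of the 4, R1 was below R3 in WT and above it in both clones. Leaving out WT replicate 1 or WT replicate 3 left 0 genes called, with 671 and 1416 at an unadjusted p below 0.05, and leaving out sg6 replicate 1 gave 702.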

How the results depend on the processing

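The number of genes called rests on few residual degrees of freedom. The counts of genes higher and lower in R1 stayed within 1.5 times under DESeq2, median-of-ratios factors, both other filters and thinning. They were 1 and 0 with only the 6 libraries of R1 and R3 (1573 lower at an unadjusted p below 0.05), 0 and 1 without the line block (759 higher at an unadjusted p below 0.05), 0 and 0 with glmTreat (76 and 56 at an unadjusted p below 0.05), 5 and 2 beyond a log2 fold change of 2 at an adjusted p below 0.01, and 733 and 720 with no fold limit. Without the sg5 line they were 273 and 314, without the sg6 line 0 and 0 (1224 and 989 at an unadjusted p below 0.05), and without the WT line 48 were lower. Leaving out single libraries gave 0 to 262 higher and 0 to 334 lower genes, lowest without sg6 replicate 3 and highest without sg5 replicate 1. In all of these fits the called genes that were tested kept their direction, which their choice on the same libraries largely sets. The cause of the changing counts was not tested.

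The KO minus WT count of 4 became 205 with DESeq2, 28 with no filter and 0 without R2, and 0 to 702 with single libraries left out. In the rRNA-depleted libraries the count of 48 became 197 with DESeq2, 0 with genes alone (2210 at an unadjusted p below 0.05) and 0 to 288 with single libraries left out. The 50 genes called both by replicate and in the same direction in both clones became 82 with the replicate block and 243 with no fold limit, and 0 to 136 with single libraries left out. The block also moved the number of genes called in both clones from 1186 to 1249. The same number correlated best in 15 of 18 comparisons of a library with the 3 of another line, though WT R1 with sg5 R1 at only 0.03. The replicate number was a factor in the R1 versus R3 fits and was left out of the main genotype fits. Of the named genes, Etv1 changed sign without the line block (0.14) and with thinned counts (0.046), and Cebpa with thinned counts (0.0197). With single libraries left out, Etv1 ranged from -0.465 to 0.242 and Cebpa from -0.155 to 0.0712. No other named gene changed sign. Among the list medians, 14 values with a single library left out moved by more than 1 SD of the medians of the 3 lines.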
